A study of Mus musculus with 3 samples.

Results

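A set of 10 genes of the inflammasome and of the interleukin-1 family was followed across the cell classes of the tumor-bearing mouse brain by droplet single-cell RNA sequencing (scRNA-seq). The members were taken by symbol and are Il1a, Il1b, Il18, Il1rn, Il1r2, Nlrp3, Pycard, Casp1, Casp4 and Gsdmd, 10 of the 31053 genes in the files. All 10 passed the filter on low counts in the fit across cell classes. The study set vehicle-treated against niacin-treated mice with glioblastoma (GBM), and the files analyzed here hold 3 libraries. One library came from control mice injected with saline (vehicle replicate 2), and 2 came from mice that received niacin at 100 mg/kg daily by intraperitoneal injection from day 7 after implantation (niacin replicates 1 and 2). All mice were female wild-type C57BL/6 of 6 to 8 weeks, carried tumors grown from brain tumor-initiating cells of a single NPcis mouse line with Nf1 and Trp53 mutations, and were killed 4 weeks after implantation. Each library was a pool of tissue from a 2 mm section around the injection site, enriched for leukocytes on a Percoll gradient and then sorted for live cells. Shares of UMIs by class below thus refer to these enriched cells and not to the whole tissue. The labels give 5 control mice for 1 library and 10 niacin mice for 2, but also 4 pooled tissues per sample. A pool is 1 value, so the spread between mice was not measured. The p-values below measure only how differences between classes vary across 3 libraries, with vehicle and niacin libraries taken as replicates.

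Interleukin-1 alpha and interleukin-1 beta are ligands of one receptor, IL1R1, and interleukin-18 uses a receptor of its own. Interleukin-1 beta and interleukin-18 are made as inactive precursors that caspase-1 cuts inside an inflammasome, a complex of a sensor such as NLRP3, the adaptor ASC (encoded by Pycard) and the caspase. Caspase-1 and caspase-11 (the mouse protein encoded by Casp4) also cut gasdermin D, whose fragments form pores in the cell membrane. Transcript counts show neither this cutting nor release of the cytokines.

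The upstream sequences of the ligand genes Il1a and Il1b are shown because these genes are neighbors on chromosome 2 and had different class patterns. In GRCm38, Il1a lies at chr2:129299610-129309972 and Il1b at chr2:129364570-129371139, both protein-coding on the minus strand, with 54597 bases between them. The 250 bases before each RefSeq start site (GRCm38.p6, minus strand, written 5′ to 3′) run from chr2:129309973-129310222 for Il1a and from chr2:129371140-129371389 for Il1b. Capitals mark matches to 3 motifs.
Il1a: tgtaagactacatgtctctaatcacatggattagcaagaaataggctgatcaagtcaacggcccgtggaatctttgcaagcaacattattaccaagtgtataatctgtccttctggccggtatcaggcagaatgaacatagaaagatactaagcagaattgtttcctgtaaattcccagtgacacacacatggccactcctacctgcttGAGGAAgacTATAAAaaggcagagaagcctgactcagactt
Il1b: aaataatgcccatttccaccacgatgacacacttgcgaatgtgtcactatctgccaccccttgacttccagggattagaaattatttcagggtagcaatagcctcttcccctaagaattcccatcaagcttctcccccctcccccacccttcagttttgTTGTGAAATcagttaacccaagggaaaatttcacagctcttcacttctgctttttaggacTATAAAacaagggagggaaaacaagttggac
The TATA box letters TATAAA, searched on the coding strand, start 32 bases before the start site of Il1a and 31 bases before that of Il1b. They occur in 7.59% of 32851 promoter windows of that length. The PU.1 core GAGGAA, searched on both strands, occurs 41 bases upstream in Il1a and in 23.3% of all windows. The C/EBP motif TTNNGNAAT, searched on both strands, occurs 91 bases upstream in Il1b and in 10.2% of all windows. These matches describe the letters and do not show binding. Of the 10 genes, 9 had a RefSeq promoter entry.

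The other members lie apart, except for Casp1 and Casp4. Casp1 (chr9:5298517-5307265) and Casp4 (chr9:5308828-5336783) are neighbors on the plus strand with 1562 bases between them. Il18 is at chr9:50554827-50581840, Il1rn at chr2:24336853-24351494, Il1r2 at chr1:40074079-40125231, Nlrp3 at chr11:59541568-59566956, Pycard at chr7:127989708-127993867 and Gsdmd at chr15:75862327-75867408, all GRCm38. Il1b overlaps its antisense gene Il1bos over 1243 bases, Il1r2 overlaps Gm16894 over 9624 bases, and Il18 overlaps Tex12 over 4507 bases, each on the opposite strand. Whether the counting used the strand is not given in the sources used here, so reads of these pairs may not be fully separated.

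Of 6947 deposited barcodes, 5528 passed the study's limits on detected genes and mitochondrial reads, with 1514 in the vehicle library, 1811 and 2203 in niacin replicates 1 and 2. The libraries held 8301228, 9373321 and 10359526 unique molecular identifiers (UMIs, counted RNA molecules) in that order. Cells were put into classes by lineage marker UMIs, which did not include any of the 10 genes, and 8 classes had at least 10 cells in every library. In each of these classes all 8 of its markers were found in at least 10% of its cells in every library. In all, 924 barcodes occurred in more than 1 library, and the 1183 shallower copies that passed had a median of 5.35% of the UMIs of the deepest copy. Both copies had the same class in 885 of 904 cases. Shared barcodes made up 723 of 2672 microglia-like and 117 of 235 neutrophil-like cells, so the libraries may not be fully independent. Among the classes of the fit, sharing touched the monocyte/macrophage-like class most. There 179 of 190 niacin cells had a shared barcode, and 147 shallower copies had their deepest copy in the vehicle library. Contrasts with that class could not be run without shared barcodes, so the contrasts against microglia-like cells are given first.

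Il1a was almost wholly a transcript of microglia-like cells. Its level, in counts per 1000000 UMIs of the class (CPM), was 131 in the vehicle library, 114 and 126 in niacin replicates 1 and 2, or 124 ± 8.60 (SD, n = 3 libraries). The exact Poisson 95% confidence intervals were 117 to 147, 104 to 125 and 116 to 136, which cover counting error only, as do all intervals below. In the other 7 classes every library lay at or below 14.7 CPM, so the ranges did not overlap. Microglia-like cells held 1401 of the 1482 Il1a UMIs (94.5%) and 45.6% of all UMIs. The monocyte/macrophage-like class came second at 6.25 ± 5.73 CPM, and the difference from microglia-like cells was past the test (log2 fold change 3.84 ± 0.41 SE, adjusted p = 6.29e-09, edgeR quasi-likelihood test with Benjamini-Hochberg adjustment). None of the lower neighbors in the order differed past the threshold. A class sum does not tell fewer positive cells from fewer molecules per cell.

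Il1b, the other ligand, was highest in neutrophil-like cells but varied widely between libraries. Neutrophil-like cells had 2553 CPM in the vehicle library, 466 and 112 in niacin replicates 1 and 2. Monocyte/macrophage-like cells had 534, 360 and 152 CPM, and nonclassical monocyte-like cells had 496, 174 and 296 CPM in the same order. The vehicle library was the highest in each of these classes, and the neutrophil-like range spanned those of both monocyte classes. With 1 copy kept of each shared barcode, the one with most UMIs, the lowest value was instead that of monocyte/macrophage-like cells in niacin replicate 1 (47.4 CPM on 3 UMIs), against 106 CPM in neutrophil-like cells of niacin replicate 2. In niacin replicate 2, nonclassical monocyte-like cells were above neutrophil-like cells. Microglia-like cells had 52.1, 5.91 and 22.3 CPM and T cell-like cells had 14.6, 0 and 3.1 CPM. Neutrophil-like cells were above monocyte/macrophage-like cells (log2 1.74 ± 0.47 SE, edgeR adjusted p = 0.00410), a call that DESeq2 did not make (adjusted p = 0.18) and that rests in part on barcodes shared with the vehicle library. The monocyte classes did not differ past the threshold (log2 of nonclassical over monocyte/macrophage-like -0.05 ± 0.48 SE). Neutrophil-like cells held 830 of 2915 Il1b UMIs (28.5%) from 4.55% of all UMIs, with 565, 213 and 52 by library. Monocyte/macrophage-like cells held more Il1b UMIs in all, with 1044, 48 and 44 in the same order. In nonclassical monocyte-like cells of niacin replicate 2 the neutrophil marker list summed to 2868 CPM with 7 of its 8 genes detected, against 54.1 and 41.3 CPM in the vehicle library and niacin replicate 1, and its part in the Il1b level was not tested.

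Il1rn encodes the interleukin-1 receptor antagonist, which occupies the receptor without signaling. In monocyte/macrophage-like cells it had 586 CPM in the vehicle library, 465 and 117 in niacin replicates 1 and 2. Neutrophil-like cells had 456, 103 and 67.0 CPM, and the 2 classes did not differ past the threshold (log2 of neutrophil-like over monocyte/macrophage-like -0.42 ± 0.44 SE, edgeR adjusted p = 0.497). Their ranges overlapped, with vehicle the highest in both. Nonclassical monocyte-like cells had 162, 1.65 and 16.3 CPM, below neutrophil-like cells (log2 of neutrophil-like over nonclassical 2.97 ± 0.52 SE, adjusted p = 4.20e-05). Microglia-like cells had 13.3, 0 and 0.626 CPM, and the 0 allows up to 0.709 CPM in niacin replicate 1 (3 counts).

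Il1r2 encodes the decoy receptor, which binds interleukin-1 and does not signal. Neutrophil-like cells had 822, 269 and 104 CPM in the vehicle library and niacin replicates 1 and 2, and monocyte/macrophage-like cells had 112, 60.0 and 17.3 CPM. The neutrophil-like class was higher in every library (log2 3.24 ± 0.36 SE, edgeR adjusted p = 2.81e-08). Neutrophil-like cells held 353 of 736 Il1r2 UMIs (48.0%). T cell-like cells had 22 CPM in the vehicle library and 1.48 and 1.03 CPM in the niacin libraries, and microglia-like cells had no more than 2.08 CPM. Il1b, Il1rn and Il1r2 were thus highest on average in neutrophil-like or monocyte/macrophage-like cells, and Il1a was not.

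**Figure D1:**
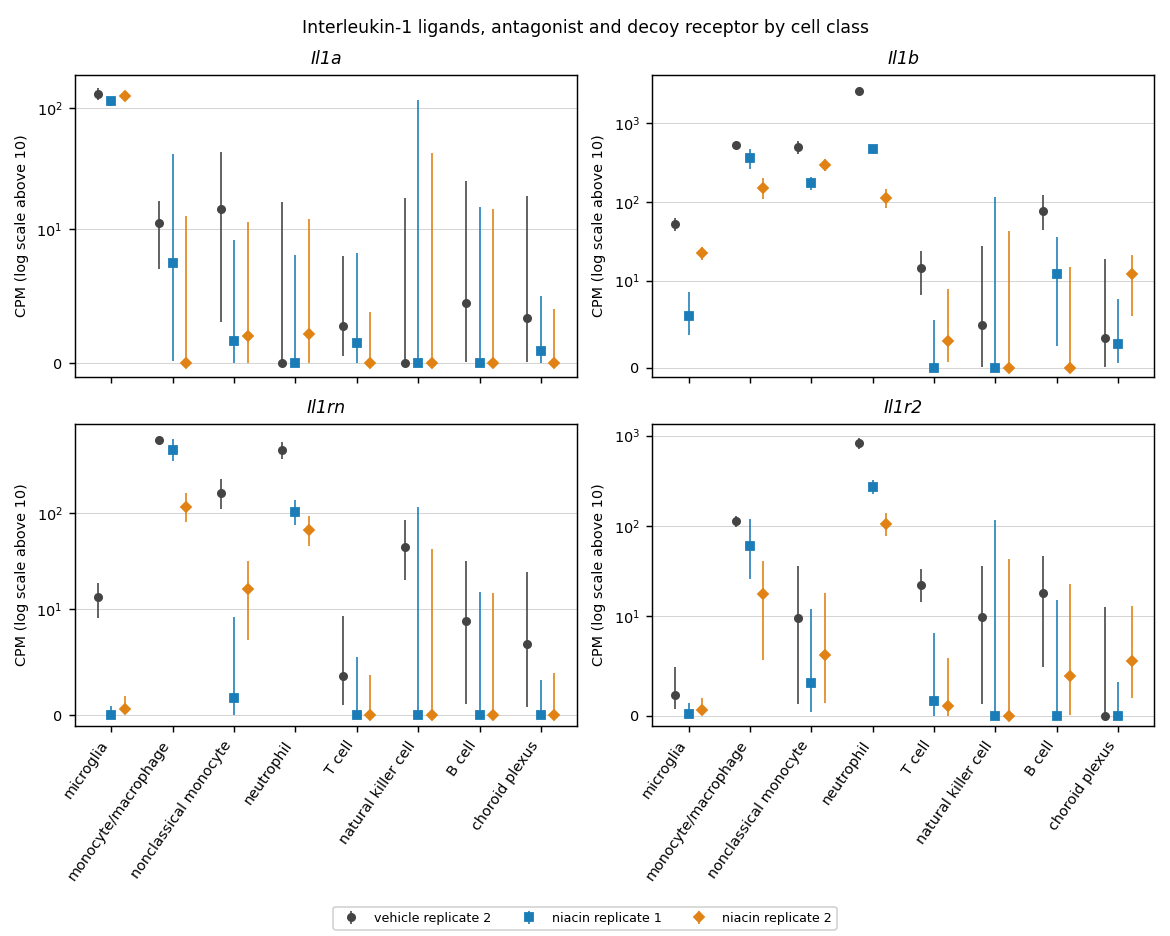
Levels of Il1a, Il1b, Il1rn and Il1r2 by cell class. Each point is 1 library (circles vehicle replicate 2, squares niacin replicate 1, diamonds niacin replicate 2), the y axis is CPM of the class sum on a scale that is linear up to 10 and logarithmic above, and bars are exact Poisson 95% intervals. Il1a stands at 114 to 131 CPM in microglia-like cells alone, and Il1b in neutrophil-like cells runs from 112 to 2553 CPM.

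Il18, the ligand cut by caspase-1 along with interleukin-1 beta, was present in microglia-like and monocyte/macrophage-like cells at low levels. Microglia-like cells had 27.5, 43.2 and 43.2 CPM (vehicle, niacin 1, niacin 2) and monocyte/macrophage-like cells 55.3, 52.5 and 31.1 CPM. The ranges overlapped and the difference was not past the threshold (log2 of monocyte/macrophage-like over microglia-like 0.54 ± 0.30 SE, edgeR adjusted p = 0.151). Choroid plexus-like cells, the epithelium that makes cerebrospinal fluid, came next at 13.5, 9.96 and 17.4 CPM, below microglia-like cells (log2 of microglia-like over choroid plexus-like 0.88 ± 0.35 SE, adjusted p = 0.0257). Neutrophil-like cells had 4 Il18 UMIs in all.

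Nlrp3 encodes the sensor of the inflammasome of that name. Microglia-like cells had 120, 112 and 130 CPM, a narrow range, whereas neutrophil-like cells had 230 CPM in the vehicle library and 28.5 and 45.4 CPM in the niacin libraries. Neutrophil-like cells were thus the highest class in the vehicle library and below microglia-like cells in both niacin libraries, and the contrast was not past the threshold (log2 of neutrophil-like over microglia-like 0.18 ± 0.32 SE, edgeR adjusted p = 0.677). Without shared barcodes neutrophil-like cells were higher (log2 0.78, adjusted p = 0.0256). Monocyte/macrophage-like cells had 57.8, 67.4 and 76.0 CPM and nonclassical monocyte-like cells 14.7, 34.7 and 36.7 CPM. T cell-like cells had at most 3.66 CPM. Microglia-like cells held 1386 of 1803 Nlrp3 UMIs (76.9%).

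Pycard encodes ASC, the adaptor that links the sensor to caspase-1. It had 307, 377 and 380 CPM in microglia-like cells and 277, 480 and 318 CPM in monocyte/macrophage-like cells, which did not differ past the threshold (log2 of monocyte/macrophage-like over microglia-like 0.05 ± 0.24 SE, edgeR adjusted p = 0.897). T cell-like cells had 103, 157 and 149 CPM. Neutrophil-like cells had 49.7, 56.9 and 58.4 CPM, below every library of the microglia-like, monocyte and T cell-like classes. Among the 8 classes the neutrophil-like level exceeded that of choroid plexus-like cells past the threshold (log2 1.42 ± 0.35 SE, adjusted p = 0.000683).

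Casp1, the caspase that cuts interleukin-1 beta and interleukin-18, was highest by mean in monocyte/macrophage-like cells and lowest in neutrophil-like cells among the leukocyte classes of the fit. Its levels were 71.6, 105 and 107 CPM in monocyte/macrophage-like cells, 83.6, 82.6 and 85.7 CPM in nonclassical monocyte-like cells, and 40.4, 58.8 and 55.3 CPM in microglia-like cells. T cell-like cells had 43.9, 57.6 and 76.4 CPM and neutrophil-like cells 22.6, 26.3 and 19.5 CPM. From the highest class down to neutrophil-like cells, no 2 neighbors in the order of mean levels differed past the threshold. By CPM, the neutrophil-like libraries were below all libraries of the microglia-like, monocyte and T cell-like classes. CPM are not scaled between classes as the class sums of the fit are. In the fit, Casp1 in neutrophil-like and microglia-like cells did not differ past the threshold.

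Casp4 encodes caspase-11, which senses bacterial lipopolysaccharide in the cytosol. Monocyte/macrophage-like cells were highest with 180, 89.9 and 76.0 CPM, followed by natural killer cell-like cells with 54.4, 94.4 and 68.8 CPM on 20 UMIs (log2 1.31 ± 0.44 SE, edgeR adjusted p = 0.0248). Neutrophil-like cells had 94.9, 50.3 and 43.2 CPM, T cell-like cells 70.5, 25.1 and 36.1 CPM, and microglia-like cells 51.2, 40.6 and 32.9 CPM. The vehicle library was the highest in each of these classes except natural killer cell-like cells.

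Gsdmd, the pore-forming protein, was highest in nonclassical monocyte-like cells at 113, 85.9 and 93.8 CPM, with monocyte/macrophage-like cells at 76.8, 105 and 76.0 CPM and microglia-like cells at 74.6, 66.6 and 75.1 CPM. Neutrophil-like cells had 63.3, 56.9 and 41.1 CPM, below microglia-like cells in each library. In the fit, which scales the class sums, the log2 of microglia-like over neutrophil-like was -0.38 ± 0.23 SE (edgeR adjusted p = 0.165). Neighbors among these 4 classes did not differ past the threshold. T cell-like cells were lower with 28.4, 34.0 and 28.9 CPM (log2 of neutrophil-like over T cell-like 1.57 ± 0.26 SE, edgeR adjusted p = 1.02e-05).

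**Figure D2:**
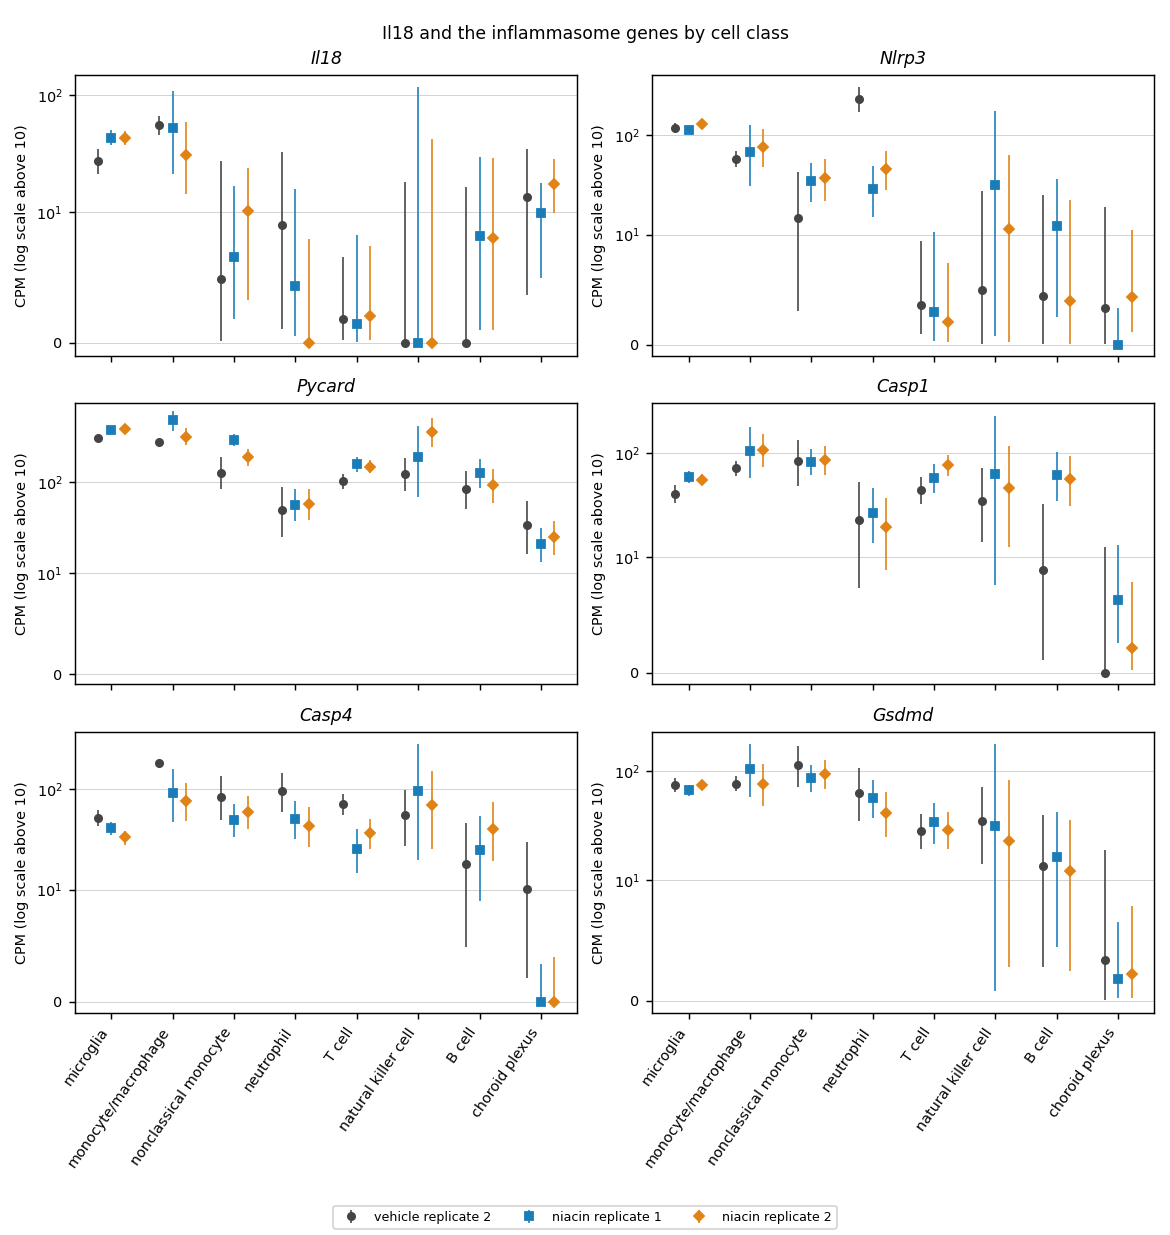
Levels of Il18, Nlrp3, Pycard, Casp1, Casp4 and Gsdmd by cell class, drawn as for the interleukin-1 genes (points are libraries, y axis CPM, linear up to 10 and logarithmic above, bars exact Poisson 95% intervals). Nlrp3 in neutrophil-like cells falls above microglia-like cells in the vehicle library (230 CPM) and below them in the niacin libraries (28.5 and 45.4 CPM), and Pycard is at 49.7 to 58.4 CPM in neutrophil-like cells.

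Neutrophil-like cells were next set against microglia-like cells. Of the 10 genes, 4 were higher (Il1b, Il1rn, Il1r2 and Casp4) and 3 were lower (Il1a, Il18 and Pycard) at an adjusted p under 0.05. Over all 9099 genes tested, 52.5% were called, 20.5% higher and 32.0% lower. The log2 fold change was 5.61 ± 0.53 SE for Il1b (adjusted p = 1.58e-10), 6.55 ± 0.54 for Il1rn, 9.10 ± 0.45 for Il1r2 and 1.32 ± 0.32 for Casp4 (adjusted p = 0.000813). Il1r2 in microglia-like cells rests on 9 UMIs. Pycard fell by 1.84 ± 0.28 on the log2 scale and Il18 by 2.55 ± 0.61. Il1a had 1 UMI in neutrophil-like cells, so its pooled level was 140 times lower with an exact 95% interval of 25.1 to 5528. Nlrp3 (0.18 ± 0.32), Casp1 (-0.34 ± 0.34) and Gsdmd (0.38 ± 0.23) did not pass the test. The median log2 fold change of the 10 genes was 0.28 and that of all tested genes -0.47. Scaling by DESeq2 size factors in place of TMM moved the 10 values by a median of 0.14. The 7 calls held when any 1 library was left out and in the other alternatives tried, except that Il18 was under the filter without shared barcodes.

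Nonclassical monocyte-like cells against microglia-like cells gave 4 higher (Il1b, Il1rn, Il1r2 and Casp1) and 4 lower genes (Il1a, Il18, Nlrp3 and Pycard), where 44.1% of all tested genes were called, 20.7% higher and 23.3% lower. Il1b was higher by 3.82 ± 0.49 SE on the log2 scale (edgeR adjusted p = 1.32e-07) and Il1rn by 3.58 ± 0.65. Nlrp3 fell by 1.86 ± 0.36 (adjusted p = 7.88e-05) and Pycard by 0.81 ± 0.25. The median of the 10 genes was 0.52, against -0.12 over all tested genes. The Il1r2 call (log2 2.68) rests on 7 UMIs, missed the threshold without niacin replicate 1 (log2 2.64) or niacin replicate 2 (log2 2.46), was lost without shared barcodes (log2 1.59, adjusted p = 0.38), and turned to -1.91 without cells of mixed lineage. Casp1 missed it without niacin replicate 1 (log2 0.79) or 2 (0.71) and Pycard without niacin replicate 2 (-0.72), while Casp4 passed it without the vehicle library (log2 0.63). Without mixed-lineage cells Il1rn also missed the threshold (log2 2.15, adjusted p = 0.061).

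T cell-like cells served as the lymphoid comparison, in which free RNA would show. Against microglia-like cells, 6 of the 10 genes were lower (Il1a, Il1b, Il18, Nlrp3, Pycard and Gsdmd) and Il1r2 was higher, where 50.7% of all tested genes were called, 22.8% higher and 27.9% lower. Nlrp3 fell by 5.29 ± 0.47 SE on the log2 scale (edgeR adjusted p = 2.90e-11) and Il18 by 4.20 ± 0.48. Casp1 (0.28 ± 0.23) and Casp4 (0.10 ± 0.28) did not pass the test. The Il1b call (-2.06 ± 0.69, adjusted p = 0.0125) missed the threshold without mixed-lineage cells (-1.56, adjusted p = 0.060). The median was -1.36, against -0.09 over all tested genes. Il1r2 (2.92 ± 0.66, adjusted p = 0.000346) rested on the vehicle library, which held 24 of its 26 UMIs in T cell-like cells, and was not called without it (log2 1.39, adjusted p = 0.42).

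**Figure D3:**
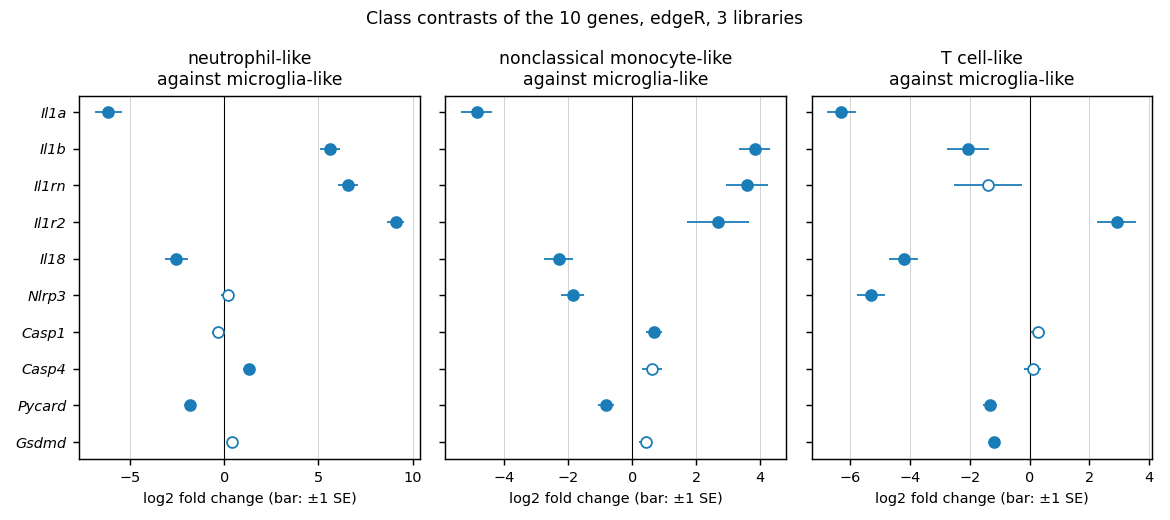
Log2 fold changes of the 10 genes in neutrophil-like, nonclassical monocyte-like and T cell-like cells against microglia-like cells (edgeR, 3 libraries, library as a block). Filled points have an adjusted p under 0.05, open points do not, and bars are ±1 SE. Il1r2 reaches 9.10 in neutrophil-like cells, and Nlrp3 lies at 0.18, -1.86 and -5.29 in the 3 panels.

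Against monocyte/macrophage-like cells the same fit gave further calls, which in the niacin libraries rest mostly on barcodes shared with the vehicle library. In microglia-like cells Il1a and Nlrp3 were higher and Il1b, Il1rn, Il1r2, Casp1 and Casp4 were lower (7 of 10, 45.3% of all tested genes called). Il1rn fell by 6.96 ± 0.53 SE on the log2 scale (edgeR adjusted p = 3.19e-12), Casp1 by 0.97 ± 0.25 and Casp4 by 1.58 ± 0.28. The higher Nlrp3 (0.90 ± 0.33, adjusted p = 0.0266) missed the threshold when any 1 library was left out and with DESeq2 (adjusted p = 0.093). In neutrophil-like cells Il1b, Il1r2 and Nlrp3 were higher and Il18, Casp1 and Pycard lower (6 of 10, 35.3% of all tested genes called). The Nlrp3 call there (log2 1.08 ± 0.38) came from the vehicle library and was 0.084 without it (adjusted p = 0.96). The Casp1 call missed the threshold without niacin replicate 2 (log2 -1.23, adjusted p = 0.066).

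In nonclassical monocyte-like cells against monocyte/macrophage-like cells, 5 of 10 genes were lower (Il1rn, Il1r2, Il18, Casp4 and Pycard) and none was higher, with 12.5% of all tested genes called, 6.03% higher and 6.48% lower. Il1rn fell by 3.38 ± 0.51 SE on the log2 scale and Il18 by 2.83 ± 0.50 (edgeR adjusted p = 0.000155). The calls of Casp4 and Pycard were lost without any 1 library, with log2 fold changes from -1.17 to -0.55 for Casp4 and from -1.05 to -0.65 for Pycard. In T cell-like cells all 10 genes were lower, with 40.1% of all tested genes called (22.2% lower), and the smallest change was that of Casp1, which fell by 0.69 ± 0.26 (adjusted p = 0.0331). Casp1 was not called without any 1 library (log2 from -0.79 to -0.54), nor was Il1a without the vehicle library (-1.66) or niacin replicate 1 (-2.38). The medians of the 10 genes were -0.76 in microglia-like, -0.34 in neutrophil-like, -0.96 in nonclassical monocyte-like and -2.70 in T cell-like cells, against 0.11, -0.31, -0.04 and -0.01 over all tested genes.

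Counted per cell, the transcripts were sparse even in the classes that held them. With each cell thinned to 1000 UMIs, an Il1a UMI was found in 45 of 379 microglia-like cells of the vehicle library, 78 of 813 of niacin replicate 1 and 89 of 885 of niacin replicate 2, a share of 10.5% ± 1.20 (SD, n = 3). No T cell-like cell of 200, 133 and 149 had one. With 3 cells taken as the limit for a 0, this allows shares of up to 1.5%, 2.26% and 2.01% of thinned cells with a sampled UMI. It sets no limit on cells that express the gene. Before thinning, T cell-like cells held 3, 1 and 0 Il1a UMIs. Without thinning the microglia-like share was 28.4% ± 2.76. Nlrp3 was found in 11.8% ± 1.05 and Pycard in 22.4% ± 3.65 of thinned microglia-like cells. In T cell-like cells a Nlrp3 UMI was found in 1 cell of all 3 libraries, whereas Pycard was found in 5.50%, 15.8% and 16.8% of cells.

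In neutrophil-like cells, the share with an Il1b UMI after thinning was 54.7% (29 of 53 cells, exact binomial 95% interval 40.4% to 68.4%) in the vehicle library, 28.3% (13 of 46) in niacin replicate 1 and 16.0% (8 of 50) in niacin replicate 2. T cell-like cells had 1.5%, 0% and 0%. Median depths before thinning were 2855, 6082 and 6731 UMIs in the neutrophil-like cells used and 5270, 4948 and 6332 in the T cell-like cells. The share thus fell in the same order as the CPM. Without shared barcodes it was 78.6%, 56.5% and 16.7%. An Il1r2 UMI was found in 47.2%, 26.1% and 8.00% of thinned neutrophil-like cells, and without thinning in 49.5%, 47.4% and 36.8%.

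UMIs of Il1b and of the decoy receptor Il1r2 were found together in some neutrophil-like cells. In the vehicle library 18 of 53 thinned neutrophil-like cells had UMIs of both Il1b and Il1r2, where 29 had Il1b and 25 had Il1r2. In niacin replicate 1 the counts were 7 with both, 13 with Il1b and 12 with Il1r2 of 46 cells, and in niacin replicate 2 they were 2 with both, 8 with Il1b and 4 with Il1r2 of 50 cells. Il1b and Il1rn were found together in 33 of 233 monocyte/macrophage-like cells of the vehicle library, where 79 had Il1b and 72 had Il1rn. In microglia-like cells Il1a and Nlrp3 coincided in 6 of 379, 10 of 813 and 13 of 885 cells, with 45, 78 and 89 cells positive for Il1a and 40, 100 and 110 for Nlrp3. These are counts over cells of pooled mice and were not tested.

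Microglia-like cells were then split by activation markers that hold none of the 10 genes (Cst7, Ch25h, Cxcl13, Lpl, Itgax, Spp1, Csf1 and Cd63). After thinning to 2000 UMIs, cells with at least 2 markers numbered 46, 30 and 52 and cells with none 116, 292 and 295 in the vehicle library and niacin replicates 1 and 2. Nlrp3 had 198, 137 and 125 CPM in cells without markers and 65.2, 50 and 96.2 CPM in activated cells. Casp4 had 43.1, 51.4 and 32.2 CPM without markers and 97.8, 66.7 and 115 CPM in activated cells. Both genes moved the same way in all 3 libraries, but none of the 5 members tested passed the threshold, where 6.93% of 3148 genes did, 4.76% higher and 2.16% lower. Nlrp3 had a log2 fold change of -1.0 ± 0.34 SE (edgeR adjusted p = 0.0774) and Casp4 one of 1.26 ± 0.41 (adjusted p = 0.0584). These 2 members had an unadjusted p under 0.05, as did 635 of the 3148 genes, and DESeq2 called 0 members. Il1a (-0.16 ± 0.30), Pycard (0.24 ± 0.22) and Gsdmd (-0.31 ± 0.39) lay closer to 0, and the other 5 genes were under the filter on low counts.

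The split itself was marked by Apoe, a lipid carrier, which was higher in activated cells (log2 3.03 ± 0.31 SE, edgeR adjusted p = 2.37e-08), and by P2ry12, a homeostatic microglia receptor, which fell by 0.74 ± 0.19. Tmem119, a marker of the microglia-like class, had -0.49 ± 0.19 and was not past the threshold (edgeR adjusted p = 0.124). A list of 12 immediate early genes, which respond to tissue handling among other stimuli, summed to 23483, 25461 and 23205 CPM in cells without markers and to 9370, 14067 and 19577 CPM in activated cells. Their part in the lower Nlrp3 values was not tested. Thinned to 1000 UMIs, or without shared barcodes, the log2 fold change of Nlrp3 was 0.40 and 0.12.

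**Figure D4:**
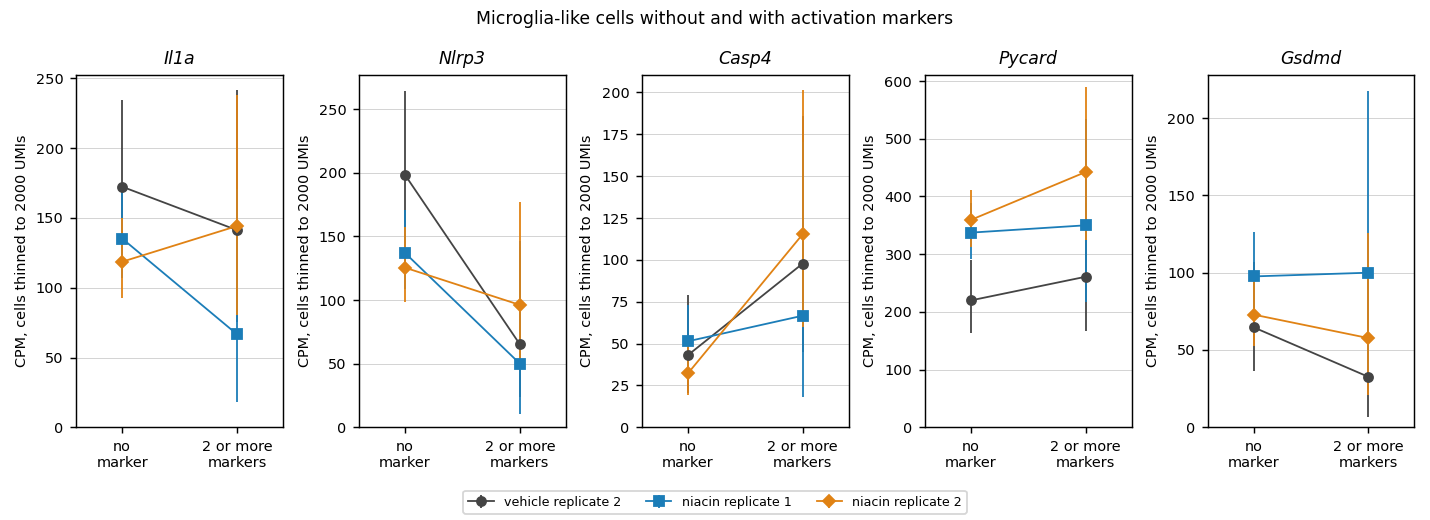
Levels of the 5 tested genes in microglia-like cells without activation markers and with at least 2. Points are libraries joined by lines, the y axis is CPM of cells thinned to 2000 UMIs, and bars are exact Poisson 95% intervals. Nlrp3 is lower and Casp4 higher in activated cells of each library, with wide intervals in the activated cells (30 to 52 cells).

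Niacin was set against vehicle by values only, since 1 vehicle library has no spread, and a gene was called when both niacin libraries were at least 2-fold away in the same direction. In microglia-like cells only Il1b of the 8 members above the minimum level was called. It was lower at 5.91 and 22.3 CPM against 52.1 CPM, where 2.39% of 8524 genes were lower by this rule and 1.26% higher (1.91% and 1.55% when scaled by DESeq2 size factors). It was also lower without shared barcodes (39.5 CPM against 5.26 and 13.6) and without mixed-lineage cells (54.0 CPM against 7.32 and 17.5). The monocyte/macrophage marker list summed to 125 CPM in microglia-like cells of the vehicle library with 8 of 8 genes detected, against 17.2 CPM (7 of 8) and 32.1 CPM (5 of 8) in the niacin libraries, and its part in the difference was not tested. The neutrophil list summed to 24.6, 48.4 and 42.5 CPM with Stfa2l1 at 0 in each library. Il1b was also highest in the vehicle library in T cell-like cells (mean of the libraries 5.91 CPM), where free RNA would show. Its mean was 29.3 CPM in B cell-like and 26.8 CPM in microglia-like cells, which did not differ past the threshold. The part of free RNA in the Il1b difference of microglia-like cells was not tested. Il1a, Nlrp3, Pycard, Casp1, Casp4, Gsdmd and Il18 differed by less than 2-fold in both niacin libraries.

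In neutrophil-like cells 4 of 8 members were lower in both niacin libraries, namely Il1b, Il1rn, Il1r2 and Nlrp3, and none was higher. By this rule 26.4% of 4393 genes were lower and 2.48% higher, and the median log2 ratio of all genes was -0.63 in niacin replicate 1 and -0.72 in niacin replicate 2. The log2 ratios were -2.45 and -4.51 for Il1b, -2.15 and -2.77 for Il1rn, -1.61 and -2.99 for Il1r2, and -3.02 and -2.34 for Nlrp3. Casp1, Pycard and Gsdmd had ratios between -0.62 and 0.23. Casp4 was lower at 50.3 and 43.2 CPM against 94.9 CPM, short of the rule in niacin replicate 1. At 1.5-fold, 5 of 8 members were lower and none higher, where 44.6% of genes were lower and 5.92% higher. Scaled by DESeq2 size factors, 8.24% of the genes were lower and 10.9% higher, the median log2 ratio of all genes was 0.07 and 0.09, and 3 members were lower. These were Il1b (-1.75 and -3.69), Il1rn (-1.45 and -1.96) and Nlrp3 (-2.32 and -1.53), while Il1r2 had -0.91 and -2.18. The immediate early genes summed to 7759, 3178 and 2352 CPM in neutrophil-like cells of the vehicle library and niacin replicates 1 and 2. Their part was not tested.

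Neutrophil-like cells were also split by maturation genes, a comparison added after the values were seen. These genes, Ltf and Ngp, are also on the marker list that set the class. Cells with neither thus reached the class through its other markers, so the class rule shaped both groups. A UMI of Ltf or Ngp, granule proteins made by immature neutrophils, was found in 47 of 91 cells of the vehicle library, 57 of 76 of niacin replicate 1 and 62 of 68 of niacin replicate 2. Among cells thinned to 1000 UMIs it was found in 28.3% (15 of 53, exact binomial 95% interval 16.8% to 42.3%), 56.5% (26 of 46, 41.1% to 71.1%) and 82.0% (41 of 50, 68.6% to 91.4%), leaving out 38, 30 and 18 shallower cells, and in 2.5%, 1.5% and 3.36% of thinned T cell-like cells. Before thinning, cells without such a UMI had 4680, 3183 and 1149 CPM of Il1b, and cells with one had 709, 50.5 and 69.8 CPM. Il1b was higher in cells without granule UMIs in every library, and so were Il1rn, Il1r2 and Nlrp3. Il1r2 had 1352, 973 and 438 CPM without and 363, 162 and 90.0 CPM with a granule UMI. Nlrp3 had 379, 148 and 109 CPM without and 101, 10.1 and 42.8 CPM with one. After thinning Il1b had 4395, 2650 and 333 CPM without and 1067, 0 and 146 CPM with a granule UMI, on 6 UMIs or fewer in each group of niacin replicate 2. Within cells lacking granule UMIs, the vehicle library had the highest values of these genes. In niacin replicate 2 that group was 6 cells with 2 Nlrp3 UMIs. The part of the granule gene shares in the differences between libraries was not tested.

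Without shared barcodes the neutrophil-like class had 60, 33 and 25 cells and Il1b levels of 3861, 1698 and 289 CPM, the same order at higher levels. Cells with a granule UMI then numbered 17, 15 and 21 and had 1866, 186 and 203 CPM of Il1b, against 4734, 3082 and 1027 CPM in cells without. Il1rn no longer kept its direction, with 967, 227 and 119 CPM in cells with a granule UMI and 541, 189 and 302 CPM in those without. After thinning, the share with a granule UMI without shared barcodes was 14.3% (6 of 42), 17.4% (4 of 23) and 62.5% (15 of 24), and Il1r2 in niacin replicate 2 was higher in cells with a granule UMI (4 UMIs against 0).

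**Figure D5:**
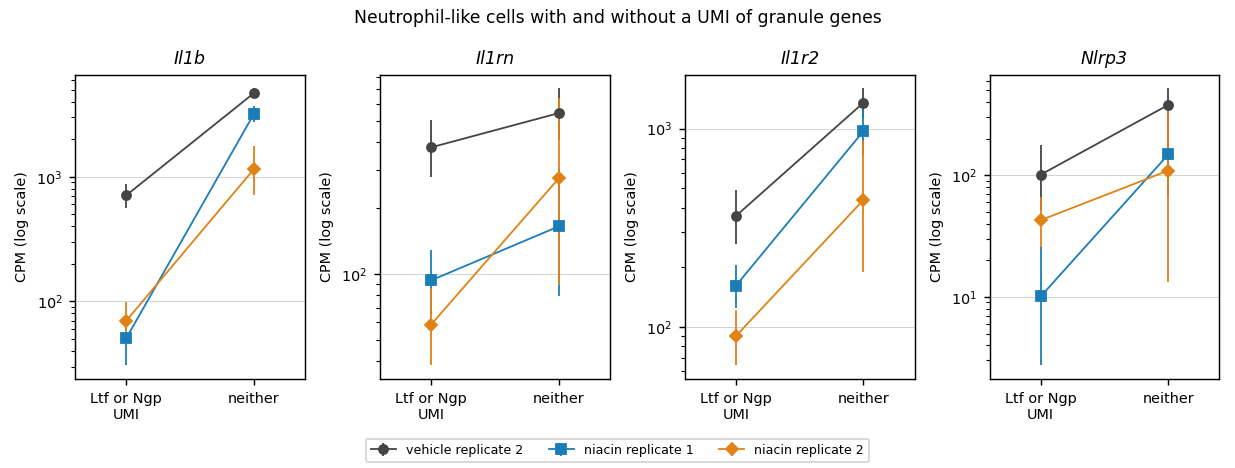
Levels of Il1b, Il1rn, Il1r2 and Nlrp3 in neutrophil-like cells with a UMI of the granule genes Ltf or Ngp and in those with neither. Points are libraries joined by lines, the y axis is CPM on a log scale, and bars are exact Poisson 95% intervals. Each gene is higher in cells with neither UMI in each library, for Il1b at 4680, 3183 and 1149 CPM. Ltf and Ngp are also on the marker list that set the class.

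In nonclassical monocyte-like cells Il1rn was lower under niacin (162 CPM against 1.65 and 16.3) and Nlrp3 was higher (14.7 CPM against 34.7 and 36.7) among 7 members above the minimum. Of 6628 genes 6.34% were lower by this rule and 7.0% higher (4.42% and 8.55% with size factors). The vehicle Nlrp3 level rests on 3 UMIs (exact Poisson 95% interval 3.04 to 43.1 CPM), which overlaps the niacin intervals of 21.5 to 53.1 and 21.8 to 58.0 CPM. The monocyte/macrophage marker list summed to 958 CPM with all 8 genes in the vehicle cells, against 436 and 404 CPM with 6 of 8 and Vcan at 0 in the niacin libraries, and its part in the Il1rn difference was not tested. None of 9 members was called in monocyte/macrophage-like cells (5.02% of genes lower, 3.03% higher), none of 4 in T cell-like cells (6.08% lower, 2.53% higher) and none of 2 in choroid plexus-like cells (14.0% lower, 3.34% higher). With size factors the shares were 4.75% lower and 3.36% higher in monocyte/macrophage-like cells, where Casp4 was lower (log2 -1.01 and -1.18). T cell-like cells then had 4.01% lower and 3.91% higher, and choroid plexus-like cells 6.11% lower and 9.36% higher. Of the 190 monocyte/macrophage-like cells of the niacin libraries 179 had a shared barcode, so the treatments cannot be told apart in that class.

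Other genes of the pathway were read from a fixed list of 45, of which 42 were in the files and 36 passed the filter. Against microglia-like cells, 14 of 36 were higher and 9 lower in neutrophil-like cells, 9 higher and 11 lower in nonclassical monocyte-like cells, and 6 higher and 18 lower in T cell-like cells. Over all tested genes the shares higher and lower were 20.5% and 32.0% for neutrophil-like cells, 20.7% and 23.3% for nonclassical monocyte-like cells, and 22.8% and 27.9% for T cell-like cells. The receptor chain that interleukin-1 signals through, Il1r1, was at or below 13.1 CPM in every library and class and was highest in choroid plexus-like cells (11.4 ± 1.53 CPM). It had no UMI in the neutrophil-like and monocyte/macrophage-like classes. The accessory chain Il1rap was higher in neutrophil-like than in microglia-like cells (54.6 ± 28.8 against 7.92 ± 0.964 CPM, log2 3.47 ± 0.40 SE, edgeR adjusted p = 8.73e-09).

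Of the receptor chains of interleukin-18, Il18r1 had 189 ± 25.5 CPM in T cell-like and 228 ± 60.3 CPM in natural killer cell-like cells, and the T cell-like level was above that of microglia-like cells by 6.78 ± 0.42 SE on the log2 scale (edgeR adjusted p = 9.65e-15). Il18rap was highest in natural killer cell-like cells at 318 ± 279 CPM and had 150 ± 67.0 CPM in neutrophil-like cells, a log2 fold change of 6.04 ± 0.37 over microglia-like cells. Il18bp, a secreted protein that binds interleukin-18, was highest in monocyte/macrophage-like cells at 83.6 ± 53.9 CPM. Sigirr, which dampens signaling of the receptor family, was highest in natural killer cell-like and T cell-like cells at 51.1 ± 10.3 and 43.0 ± 10.9 CPM.

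Among the other sensors, Aim2, which binds cytosolic DNA, was highest in microglia-like cells at 124 ± 17.9 CPM and fell by 2.00 ± 0.33 SE on the log2 scale in neutrophil-like cells (edgeR adjusted p = 5.67e-06). Nlrp12 had 50.2 ± 21.9 CPM in neutrophil-like cells, with 10 UMIs in microglia-like cells and none in the other 6 classes. Mefv, which encodes pyrin, had 79.0 ± 22.9 CPM in monocyte/macrophage-like cells and 35.0 ± 29.3 CPM in nonclassical monocyte-like cells, the latter above microglia-like cells by 4.95 ± 0.61. P2rx7, the receptor for extracellular ATP that leads to NLRP3 activation, had 137 ± 17.2 CPM in microglia-like cells, 69.9 ± 13 CPM in T cell-like cells and 1 UMI in neutrophil-like cells. Of the related cytokines, Il1f9 had 140 ± 7.32 CPM in neutrophil-like cells and at most 4.08 CPM in any other class. None of the 15 pathway genes tested in the activation split was called, where 6.93% of all 3148 tested genes were.

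The genes with the most similar class patterns were taken by Pearson correlation of log2(CPM + 10), averaged over libraries, across 8 classes among 9557 genes. The classes share libraries and depth, and with 8 points such values are descriptive. Genes near to Il1a were Gm43221 and Ch25h (r of 0.997 each), both highest in microglia-like cells. Il1b was nearest to Pirb, Plaur and Clec12a (0.991, 0.990 and 0.987), all highest in neutrophil-like cells, as were Gm13822 and Inhba, which were near to Il1r2 (0.997 and 0.993). Il1rn was nearest to AI839979, Acod1 and Oasl1, and Nlrp3 to Fcgr3, Cd14 and Borcs6 (0.977, 0.976 and 0.971). Il18 was nearest to Renbp, Gmppb and Akap7, Pycard to Lgals8, Gna13 and Icam1, Casp1 to Nfkb1, B2m and Parp14, Casp4 to Cfl1, Actb and Capza1, and Gsdmd to Elovl1, Arpc4 and Asap1.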

How the data were processed

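Droplet scRNA-seq libraries of 3 pools were analyzed. The authors made the deposited UMI counts with Chromium 3′ v3.1 kits and, per the labels, Cell Ranger 3.1 on mm10; the files hold raw counts per gene and barcode, without normalization, at 500 UMIs or more per barcode. Barcodes with under 200 detected genes or over 20% mitochondrial UMIs were removed. A cell took the class with the most distinct markers among 15 lists of 8, with at least 2 markers and no tie, and the rest (522 cells) stayed unassigned. No doublet caller was run, and cells with markers of several classes were left out as an alternative. Members, lists and tests were chosen with earlier results of these data known.

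UMI counts were summed per class and library and tested with edgeR 4.0.16 in R 4.3.3 (quasi-likelihood test, TMM, filterByExpr, class plus library as a block, Benjamini-Hochberg adjustment), with all 8 classes of at least 10 cells per library in 1 fit. Contrasts against microglia-like cells, the granule gene comparison and the deepest-copy setting were added after seeing the data. The contrast of dendritic-like cells was planned and not run, since 2 libraries held under 10 such cells. Named genes are the 10 members, pathway genes that passed a contrast or are a receptor of a member, and the 3 genes nearest to each member, of which some are not reported here. The niacin comparison used genes with a mean of at least 10 CPM and 20 UMIs. On simulated counts of neutrophil-like against microglia-like sums (8773 genes), 97 of 100 genes changed 4-fold and 33 of 100 changed 2-fold were recovered, and 7.14% of calls fell on unchanged genes. The simulation used a single fixed spread, gave unchanged genes the microglia-like profile and changed only genes with higher counts. In the real contrast 52.5% of genes were called, so these rates may not carry over to it. DESeq2 1.42.0 was an alternative. Positions are from the GRCm38 annotation and promoters from RefSeq.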

Additional observations from a re-analysis of the deposited data

Results flagged for a closer look

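A set of 3 contrasts had one direction in the vehicle library and the opposite in both niacin libraries. For Nlrp3 in neutrophil-like against microglia-like cells, the log2 ratio of CPM was 0.95 in the vehicle library and -1.98 and -1.52 in niacin replicates 1 and 2. For Nlrp3 in neutrophil-like against monocyte/macrophage-like cells it was 1.99 in the vehicle library and -1.25 and -0.74 in the niacin libraries. For Casp1 in nonclassical monocyte-like against monocyte/macrophage-like cells it was 0.22 in the vehicle library and -0.34 and -0.32 in the niacin libraries. With 1 vehicle library, the difference between treatments was not tested for any of them. The contrasts with monocyte/macrophage-like cells also rest on shared barcodes, which 179 of the 190 such cells of the niacin libraries had. All these ratios are of CPM, without the scaling of the fit. They carry no interval for counting error, and the share of all genes with such a turn is not given. In niacin replicate 1, Casp1 had 82.6 CPM in nonclassical monocyte-like and 105 CPM in monocyte/macrophage-like cells. In the latter, 3 counts amount to 22.5 CPM, so the direction for Casp1 may lie within counting error.

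The unassigned barcodes, which had under 2 markers of every list or a tie between lists, also held Il1a. Its level was 138 CPM in niacin replicate 1 (25 UMIs, exact Poisson 95% interval 89.3 to 204 CPM), 39.4 CPM in niacin replicate 2 and 7.10 CPM in the vehicle library. The value in niacin replicate 1 is above that of the vehicle library, where the interval was 1.46 to 20.7 CPM. Without shared barcodes the values were 69.8 CPM in niacin replicate 1 (3 UMIs, 14.4 to 204 CPM), 116 CPM in niacin replicate 2 (11 UMIs) and 5.00 CPM in the vehicle library (1 UMI, 0.127 to 27.9 CPM), so the intervals of niacin replicate 1 and the vehicle library then overlap.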

How the results depend on the processing

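Over all alternatives, 917 values of single members kept their direction and side of the threshold, 59 fell short of it, 6 newly passed it and 28 turned direction; causes were not tested. Library was the replicate block of the class fits, and without it 11 member calls were lost; nonclassical monocyte-like cells then gave 3 member calls and 708 genes against monocyte/macrophage-like cells and 5 member calls against microglia-like cells, and the activation split 42 genes. No paired analysis of the treatments was made, because the labels do not match any niacin pool to the vehicle pool. DESeq2 turned Pycard in microglia-like against monocyte/macrophage-like cells to 0.10, Gsdmd in neutrophil-like against monocyte/macrophage-like cells to -0.027 (-0.022 with no filter), Nlrp3 in neutrophil-like and Casp4 in T cell-like against microglia-like cells to -0.074 and -0.014, and Pycard in activated cells to -0.034, and it called 94 genes in the activation split. Without mixed-lineage cells, Pycard in microglia-like, Gsdmd in neutrophil-like, and Casp1 and Gsdmd in nonclassical monocyte-like cells were at 0.084, -0.11, 0.24 and -0.025 against monocyte/macrophage-like cells, and Il1r2 in nonclassical monocyte-like against microglia-like cells at -1.91. Il1b in nonclassical monocyte-like against monocyte/macrophage-like cells was 0.30 with at least 3 markers and 0.26 with at least 500 genes. Thinned to 1000 UMIs, the activation split gave 0.30 for Il1a, 0.40 for Nlrp3, 0.40 for Gsdmd and 143 genes, and without shared barcodes 0.41, 0.12 and 0.16. Genes called were 1948 with only the 2 classes (neutrophil-like against monocyte/macrophage-like), and without shared barcodes 3090 (neutrophil-like) and 2570 (nonclassical monocyte-like) against microglia-like cells. Niacin calls at 1.5-fold were 2 in microglia-like, 2 in monocyte/macrophage-like and 1 in T cell-like cells. In monocyte/macrophage-like cells they were 2 without cells with an Arg1 UMI, 2 with at least 3 markers, 1 with size factors and 1 without mixed-lineage cells, and in T cell-like cells 1 without shared barcodes and 1 without mixed-lineage cells. Thinned to 2000 UMIs the shares were 18.5% (Il1a), 19.6% (Nlrp3), 44.6% (Pycard) and 46.8% (Il1r2 in neutrophil-like cells), and without shared barcodes 8.89% (Il1a) and 10.4% (Nlrp3). With 1 library left out at a time, genes called ranged from 2042 to 2739 (neutrophil-like) and 547 to 908 (nonclassical monocyte-like, 3 to 3 members) against monocyte/macrophage-like cells, from 2291 to 4380 (nonclassical monocyte-like, 5 to 9 members) against microglia-like cells, and from 51 to 126 in the activation split. Values whose sign turned ranged from -0.87 to 0.15 (Il18) and -0.19 to 0.075 (Pycard) in microglia-like, -0.38 to 0.24 (Casp4) and -0.73 to 0.041 (Il1rn) in neutrophil-like, and -0.66 to 0.41 (Il1b) in nonclassical monocyte-like against monocyte/macrophage-like cells, from -0.64 to 0.61 (Nlrp3, neutrophil-like) and -0.080 to 0.45 (Casp4, T cell-like) against microglia-like cells, and from -0.50 to 0.050 (Il1a) in activated cells; none of these was a call.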

Other observations

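In unassigned barcodes of niacin replicate 1, Il1b was at 513 CPM (93 UMIs) and Nlrp3 at 270 CPM (49 UMIs), against 293 and 59.2 CPM in the vehicle library and 106 and 63.6 CPM in niacin replicate 2. Without shared barcodes Il1b was instead highest in the vehicle library (505 CPM), with 396 CPM (17 UMIs) and 74.1 CPM (7 UMIs) in niacin replicates 1 and 2, and Nlrp3 had 85.0, 116 and 106 CPM. Dendritic-like cells, which were too few for the fit, had 171 CPM of Il1r2, 193 CPM of Casp4 and 186 CPM of Il1b in the vehicle library (20 cells). Basophil- or mast cell-like cells had 44.6 CPM of Nlrp3 in niacin replicate 1 (31 cells, 5 UMIs) and 124 CPM in niacin replicate 2 (37 cells, 15 UMIs).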
